A study of Mus musculus with 9 samples.

Results

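The mitochondrial ribosomal protein genes were followed in RAW264.7 cells, a mouse macrophage line, by sequencing of poly(A) RNA. The members were the rows of the expression table whose gene name begins with Mrpl or Mrps and a digit. They numbered 78 of the 26146 genes listed, and 5 pseudogene rows with -ps in the name were left out. All 78 passed the filter on low values (FPKM of 1 or more in 3 or more of the 9 libraries), so that all are among the 11536 genes tested.

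Mitochondria keep a ribosome of their own, the mitoribosome. It translates the few messages of the mitochondrial genome, which encode membrane subunits of the respiratory chain and ATP synthase. Its RNA is transcribed inside the organelle, but every protein of its large and small subunits is encoded in the nucleus, made in the cytosol and imported. Some of these proteins have a relative in the bacterial ribosome. The others have none there, whatever relatives they have elsewhere, and are called mitochondria-specific or found only in mitochondria below. Macrophages given bacterial products are known to remodel their mitochondrial metabolism.

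There were 3 groups of 3 libraries, from untreated cells (Normal), cells given lipopolysaccharide (LPS), and cells given LPS together with a Traditional Chinese Medicine extract. The labels name neither plant, dose nor exposure time, and do not say whether replicates were separate cultures, so the p-values below measure only the spread between these libraries, which may be technical. For the treated cells the labels disagree with each other. The LPS samples are tied to the table columns called ET but carry library names beginning with M, and for the LPS+Extract samples it is the reverse. The groups are called ET and M after the columns. ET is LPS alone by the column names and LPS with extract by the library names. Expression was not used to choose, and the mean of ET and M against Normal is the same comparison under both readings.

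Total counts lay between 55039858 and 76242718 per library. In a principal component analysis, the first component (91.5% of the variance) set Normal (-68.35 to -67.7) apart from the treated libraries (31.8 to 36.5). The second component, with only 2.87% of the variance, set ET apart from M. ET replicate 3 lay nearer to M (-5.48) than ET replicates 1 and 2 (-12.7 and -12.6), with M between 9.45 and 10.4. All 10 macrophage markers were in the table, and their summed level was 4855 to 5052 CPM (counts per 1000000 counts, scaled by TMM factors) in the Normal libraries, 5777 to 6064 in the ET libraries and 5660 to 5846 in the M libraries. Of 9 tested, 4 were called higher and 3 lower, with Cd14 at a mean of 360 CPM (Normal), 1812 (ET) and 1922 (M) and Csf1r at 1915, 1209 and 1120. Of 8 lymphocyte markers 4 were in the table and summed to 449 to 479 CPM (Normal), 51.5 to 54.7 (ET) and 60.8 to 63.3 (M), nearly all of it from Ighm. The 6 fibroblast markers summed to 0.363 to 0.848, 9.23 to 10.8 and 12.9 to 18.5 CPM. Lum (means of 0, 8.13 and 13.1 CPM) and Dcn (0, 1.53 and 3.02) made up most of the treated sums. Col1a2 (0.287, 0.159 and 0.110) and Col3a1 (0.221, 0.109 and 0.132) did not rise. The 4 of 7 epithelial and endothelial markers in the table summed to 4.92 to 6.19, 18.1 to 21.6 and 21.6 to 23.7 CPM, mostly from Pecam1 (5.28, 18.3 and 21.4). No marker in the table was at 0 in all libraries, and the part of such cells or genes in the results below was not tested.

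Promoters of these genes are known for sites of nuclear respiratory factor 1 (NRF1) and of ETS-family factors such as GABP, which set nuclear genes for mitochondrial proteins. RefSeq promoter windows on GRCm38.p6, from 250 bases before to 50 after the start, were at hand for 69 of the 78 genes. The letters GCGCANGCG (NRF1) stood on either strand in the windows of 16 of these 69 (23.2%), against 16.9% of the 8267 tested genes with a window and 7.03% of all 27025. The letters CCGGAAG (ETS) stood in 26 of 69 (37.7%), against 22.8% and 9.93%. The YY1 letters AAGATGGCG stood in 8 (11.6%, against 4.16% of tested genes), the E-box CACGTG in 5 (7.25%, against 12.4%), and the NF-kB letters GGGANTTTC in 0 (1.12% of tested genes). A match describes the sequence and is not evidence that a factor binds there. None of these motifs contains the letters of another.

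The upstream stretches of 4 genes are shown because they carry the same kind of motif before genes that moved differently. Mrpl52 rose most clearly, Mrpl45 rose moderately, Mrpl12 fell and Mrps22, picked for display after its values were seen, was not called. They are RefSeq sequences written 5′ to 3′ along the gene, at chr14:54426659-54426908 (plus strand, Mrpl52), chr11:97315466-97315715 (plus strand, Mrpl45), chr11:120484387-120484612 (plus strand, Mrpl12) and chr9:98601680-98601929 (minus strand, Mrps22). Capitals mark ETS letters in Mrpl52 and Mrps22 and NRF1 letters in Mrpl45 and Mrpl12, on either strand.
Mrpl52: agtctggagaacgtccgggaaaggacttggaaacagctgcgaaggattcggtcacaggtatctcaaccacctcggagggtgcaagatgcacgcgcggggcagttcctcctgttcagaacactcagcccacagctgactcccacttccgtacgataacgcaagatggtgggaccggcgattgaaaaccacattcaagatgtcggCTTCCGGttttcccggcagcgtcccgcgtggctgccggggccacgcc
Mrpl45: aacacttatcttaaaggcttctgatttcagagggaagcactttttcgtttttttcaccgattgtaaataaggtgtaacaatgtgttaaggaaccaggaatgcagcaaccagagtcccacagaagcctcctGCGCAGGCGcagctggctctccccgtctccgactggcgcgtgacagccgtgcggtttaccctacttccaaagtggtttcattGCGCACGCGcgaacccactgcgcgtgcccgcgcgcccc
Mrpl12: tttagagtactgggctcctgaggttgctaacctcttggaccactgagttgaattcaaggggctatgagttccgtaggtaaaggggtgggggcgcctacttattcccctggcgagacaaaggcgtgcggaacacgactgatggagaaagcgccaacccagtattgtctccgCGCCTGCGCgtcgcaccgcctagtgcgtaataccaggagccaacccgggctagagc
Mrps22: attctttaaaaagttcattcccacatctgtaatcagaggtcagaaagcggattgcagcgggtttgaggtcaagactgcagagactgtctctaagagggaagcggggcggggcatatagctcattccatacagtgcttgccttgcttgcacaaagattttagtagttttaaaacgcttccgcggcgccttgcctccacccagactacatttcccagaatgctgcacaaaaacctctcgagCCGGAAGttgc

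The ETS letters began 47 bases before the RefSeq start in Mrpl52 and 11 bases before it in Mrps22. Mrpl45 had NRF1 letters 120 and 38 bases before its start, and Mrpl12 had them 80 bases before. Among the 16 genes with NRF1 letters, 6 were called higher, 5 lower and 5 neither in the treated cells. Among the 26 with ETS letters, these counts were 7, 9 and 10, and among all 69 genes with a window 16, 29 and 24. Genes with either motif were thus found on both sides.

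As a set, the mitoribosomal protein genes moved little and in both directions in the treated cells. In the mean of ET and M against Normal, 18 of 78 were called higher (23.1%) and 33 lower (42.3%), while 27 were not called. Called means an adjusted p under 0.05 in edgeR's quasi-likelihood test with Benjamini-Hochberg adjustment over all tested genes. Of all tested genes, 36.8% were called higher and 36.8% lower, so the share lower among the members was close to the background and the share higher below it. The median log2 change was -0.08 among the members and -0.01 among all tested genes. The changes were small, with an SD of 0.36 across members on the log2 scale against 1.53 across all tested genes. A called change of at least 1.5-fold was seen upward in 2 members, Mrpl53 and Mrpl52 (background 17.2%), and downward in 3, Mrps26, Mrpl23 and Mrps35 (background 13.0%). The groups did not overlap in 37 of 78 members (47.4%), against 65.5% of all tested genes.

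**Figure D1:**
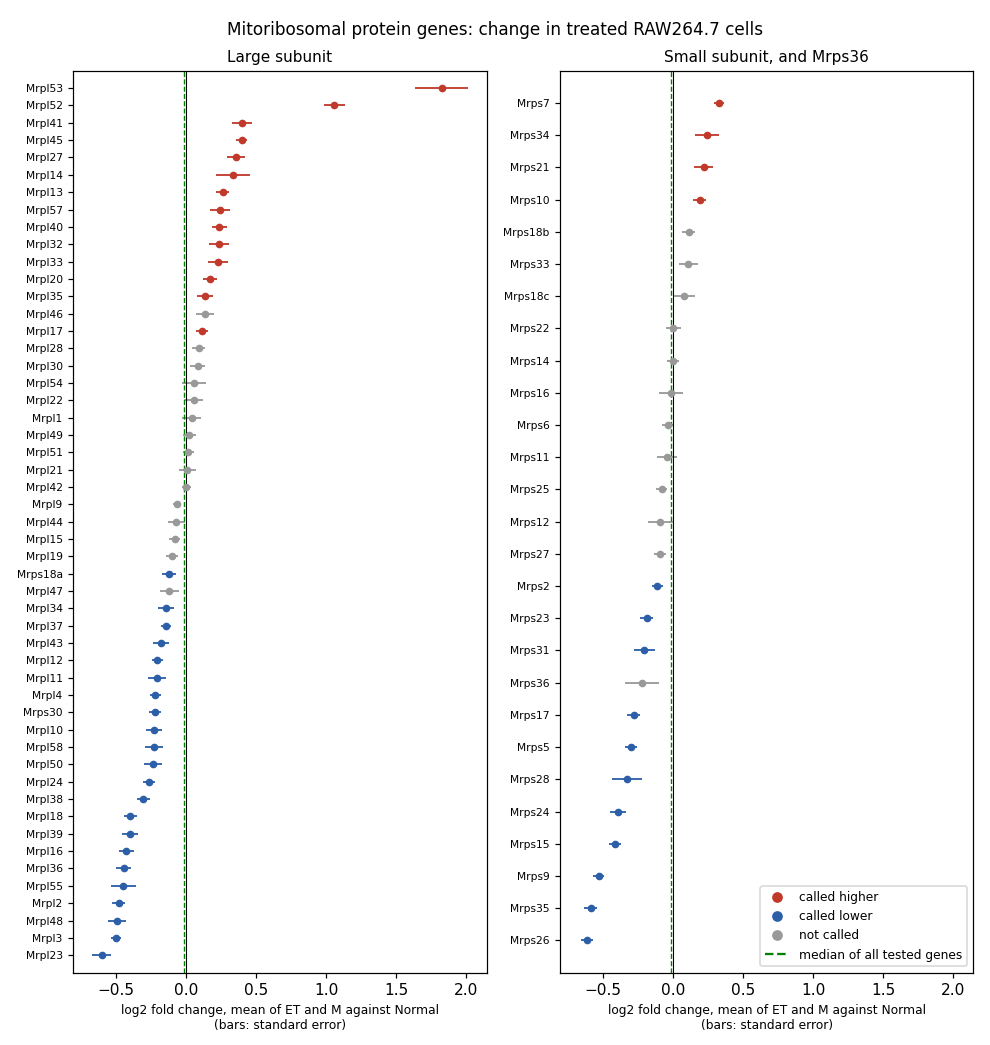
Log2 fold change (x axis) of each of the 78 genes in the mean of ET and M against Normal, with the standard error as a bar, for the large subunit on the left and the small subunit with Mrps36 on the right. Colours mark genes called higher, called lower or not called, and the dashed line is the median of all tested genes (-0.01). Most genes lie within 0.62 of 0, and Mrpl53 (1.82) and Mrpl52 (1.06) stand apart on the right.

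The split between higher and lower rests in part on scaling. With total counts in place of TMM factors, 8 members were called higher (10.3%) and 43 lower (55.1%), against 31.3% and 43.7% of all tested genes. Limma on log2(FPKM + 1) gave 9 (11.5%) and 43 (55.1%), against 31.5% and 43.6%. These scalings also moved the median of all tested genes, to -0.10 and -0.08. The members' own medians were then -0.17 and -0.15, which is 0.07 below the median of all tested genes in both, as it is with TMM factors.

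Among the 51 members built into the large subunit, 14 were called higher (27.5%) and 22 lower (43.1%), with a median log2 change of -0.07. Of the 26 in the small subunit, 4 were higher (15.4%) and 11 lower (42.3%), with a median of -0.09. The 47 with a relative in the bacterial ribosome counted 11 higher (23.4%) and 20 lower (42.6%). The 30 without such a relative counted 7 (23.3%) and 13 (43.3%). Of all tested genes, 36.8% were called higher and 36.8% lower. In the subunits and both classes of origin, the shares lower were near this background and the shares higher below it. Mrps36, named as a small subunit protein, is now known as a component of the 2-oxoglutarate dehydrogenase complex. It was not called (log2 change -0.22 ± 0.12 SE).

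Mrpl52, a large subunit protein found only in mitochondria, showed the clearest rise (ENSMUSG00000010406, chromosome 14, 54426909 to 54429756, GRCm38). It stood at 18.1, 16.7 and 14.9 CPM in Normal, 37.0, 32.3 and 33.2 in ET and 36.0, 35.5 and 33.2 in M. Every treated library was thus far above every Normal library, and ET and M overlapped. The treated mean was 2.08-fold the Normal level, a log2 change of 1.06 ± 0.074 (SE; edgeR, adjusted p = 4.00e-08). The exons of Mrpl52 overlap none of another gene in the table. Of its neighbours, Slc7a7, a subunit of an amino acid transporter whose gene lies 9129 bases away on the other strand, averaged 8.74 ± 1.52 CPM (Normal), 20.3 ± 2.85 (ET) and 17.5 ± 1.27 (M; SD, n = 3) and was also called higher (log2 change 1.11). Mmp14, a membrane-bound matrix protease 1856 bases downstream, had 0 counts in Normal and 0.470 ± 0.059 CPM in ET and 0.798 ± 0.290 in M.

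Mrpl45, the mitochondria-specific protein that helps to hold the large subunit at the inner membrane, rose 1.32-fold. Its values were 80.2, 78.3 and 81.6 CPM in Normal, 102.9, 105.0 and 99.2 in ET and 112.1, 110.4 and 102.3 in M. The lowest treated library lay above the highest Normal library, and the log2 change was 0.40 ± 0.038. Mrpl41, another mitochondria-only protein of the large subunit, had 24.0, 21.7 and 24.7 CPM in Normal, 33.0, 29.4 and 35.5 in ET and 30.0, 28.8 and 29.2 in M (log2 change 0.40 ± 0.069). Mrpl27, relative of a bacterial protein at the peptidyl transferase centre, had 17.3, 18.6 and 17.0 CPM in Normal, 23.9, 23.0 and 21.1 in ET and 22.7, 21.2 and 23.7 in M (log2 change 0.35 ± 0.067). In both genes the treated libraries did not overlap with Normal.

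In the small subunit, Mrps7, relative of a bacterial protein of the subunit head, was the gene with the largest rise. It had 56.6, 55.5 and 58.9 CPM in Normal, 74.2, 73.8 and 74.6 in ET and 69.3, 69.1 and 69.0 in M. The replicates lay close together and the 3 groups were separate, with ET highest (log2 change of the treated mean 0.33 ± 0.035; edgeR, adjusted p = 2.28e-06). M against ET was -0.10 ± 0.040 and did not pass the adjusted threshold. The start of Mrps7 lies within 1000 bases of that of Gga3 on the opposite strand, which was called lower (log2 change -0.30). Mrps7 shares 127 exonic bases (6.13%) with Gga3 and 119 (5.74%) with Mif4gd, also on the opposite strand (log2 change 0.29). How reads divide between these genes was not tested.

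**Figure D2:**
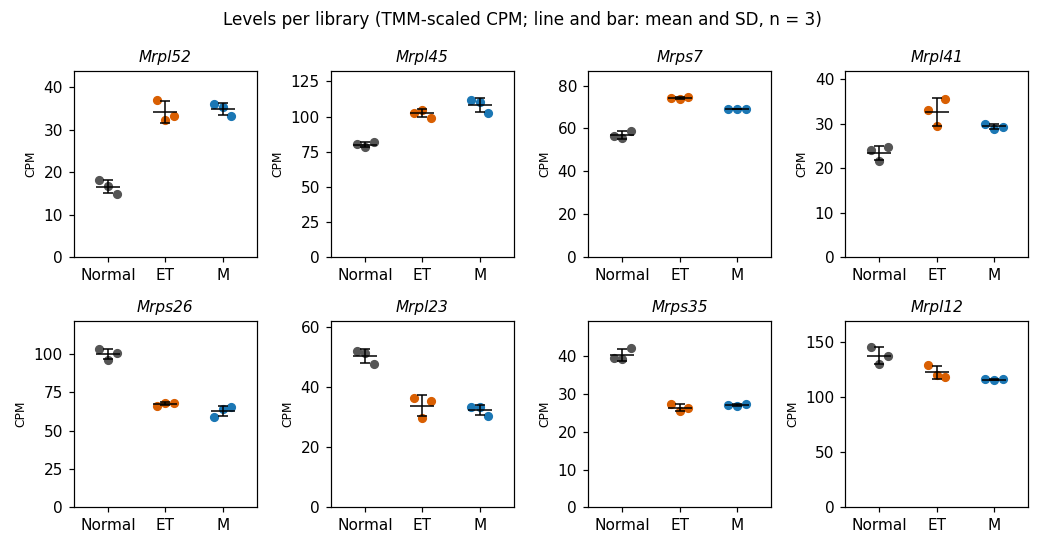
TMM-scaled CPM (y axis, from 0) in each of the 3 libraries of Normal, ET and M for 8 genes, as points, with the mean and SD as line and bar. In the upper row (Mrpl52, Mrpl45, Mrps7, Mrpl41) all treated libraries lie above all Normal libraries, and in the lower row (Mrps26, Mrpl23, Mrps35, Mrpl12) all lie below.

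The largest falls were in Mrps26, Mrpl23 and Mrps35. Mrps26, a small subunit protein found only in mitochondria (ENSMUSG00000037740, chromosome 2, 130563742 to 130568695), had 103.2, 96.2 and 100.3 CPM in Normal, 66.4, 68.1 and 68.3 in ET and 59.2, 64.2 and 65.5 in M. The treated libraries formed a band well below Normal, and the log2 change was -0.62 ± 0.040, or 0.653 times the Normal level (edgeR, adjusted p = 1.79e-08). Mrpl23, relative of the bacterial protein that lines the exit tunnel of the large subunit, stood at 51.8, 51.4 and 47.5 CPM in Normal, 36.2, 29.7 and 35.4 in ET and 33.3, 33.4 and 30.2 in M. The treated groups overlapped each other and not Normal (log2 change -0.60 ± 0.067). Mrps35, also specific to mitochondria, had 39.5, 39.2 and 42.0 CPM in Normal, 27.3, 25.6 and 26.3 in ET and 27.2, 26.8 and 27.3 in M (log2 change -0.59 ± 0.049).

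The next in order, 4 genes, fell by less than 1.5-fold. Mrps9, relative of bacterial S9 in the small subunit, averaged 79.6 ± 1.74 CPM (Normal), 55.3 ± 2.09 (ET) and 54.9 ± 1.14 (M; SD, n = 3; log2 change -0.53 ± 0.038). Mrpl3, a large subunit protein that reaches towards the peptidyl transferase centre, averaged 131.8 ± 4.93, 95.8 ± 1.91 and 90.7 ± 2.63 CPM (log2 change -0.50 ± 0.034). Mrpl48, a mitochondria-specific large subunit protein, averaged 31.0 ± 0.796, 22.2 ± 0.633 and 21.8 ± 1.96 CPM (log2 change -0.49 ± 0.062). Mrpl2, relative of the bacterial protein needed for peptide bond formation, is described with the comparison of M and ET below. In each of them all 6 treated libraries were below all 3 Normal libraries. The remaining members called lower had log2 changes of -0.45 to -0.11, and those called higher beyond the named ones of 0.11 to 0.33.

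Mrpl53, a mitochondria-specific protein of the large subunit, had the largest change in the fit, but its counts cannot be read alone (ENSMUSG00000030037, chromosome 6, 83109040 to 83109939). It had 7.02, 9.90 and 4.68 CPM in Normal, 29.3, 29.9 and 27.4 in ET and 25.2, 24.5 and 18.6 in M, a log2 change of 1.82 ± 0.19 (edgeR, adjusted p = 1.73e-06). All treated libraries were above all Normal libraries. In GENCODE M21, 695 of its exonic bases (88.0%) also belong to Gm42688, a gene on the same strand that runs from the neighbouring gene Ccdc142 through Mrpl53. Gm42688 moved the other way, with 27.0, 29.5 and 30.3 CPM in Normal, 7.50, 4.53 and 13.0 in ET and 3.93, 11.1 and 15.3 in M (log2 change -1.66 ± 0.33). The sum of both was 34.0, 39.4 and 35.0 CPM in Normal, 36.8, 34.4 and 40.4 in ET and 29.1, 35.6 and 33.9 in M. The groups overlapped in that sum. Counted as 1 gene, an alternative chosen after the data were seen, the locus had a log2 change of -0.05 ± 0.077 with a 95% interval of -0.22 to 0.12 (edgeR, adjusted p = 0.592). The rise of Mrpl53 is therefore uncertain, and how the deposited counts divide reads between these genes was not tested.

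**Figure D3:**
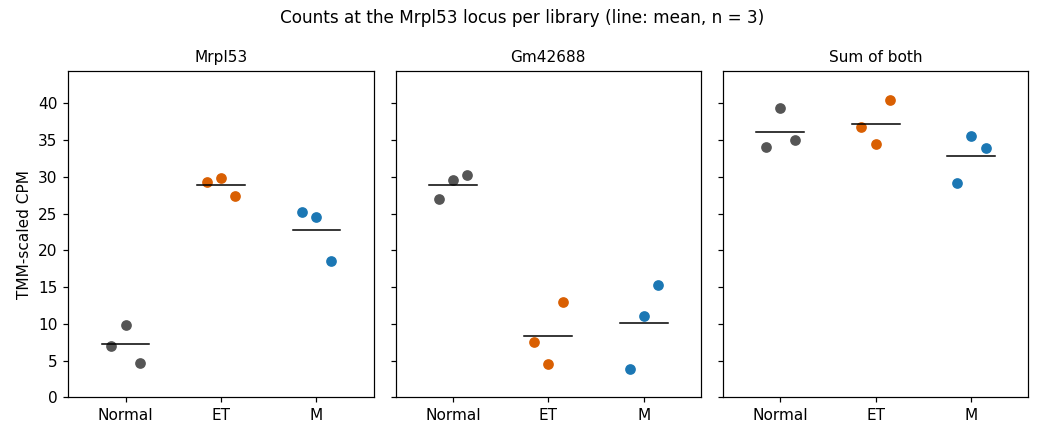
TMM-scaled CPM (y axis) per library for Mrpl53, for Gm42688 and for their sum, in Normal, ET and M, with the group mean as a line. Mrpl53 is low in Normal and higher in both treated groups, Gm42688 shows the reverse, and the summed values of the 3 groups overlap.

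Reads of other members can also be shared. In GENCODE M21, 32 of 78 shared at least 1 exonic base with another gene of the table, 16 shared at least 10% and 8 shared bases on the same strand. Without the 16, a choice made after the data were seen, 15 of 62 members were called higher (24.2%) and 28 lower (45.2%). With all 78 these shares were 23.1% and 42.3%, and among all tested genes 36.8% each. Mitoribosomal genes often start near a gene on the opposite strand. This held within 1000 bases for 30 of 78 (38.5%), against 15.4% of tested genes. The 30 include Mrps11 and Mrpl46, which are each other's neighbour. In 7 of these 30 the neighbour was called the same way as the member and in 7 the opposite way. The matching shares among all tested genes were not computed, so nothing particular to the members is read from these counts. Mrpl2 and Klc4, a kinesin light chain gene, were both lower (log2 change -0.48 and -0.88), while Mrpl40 was higher (0.24) and Hira, a histone chaperone gene, lower (-0.41). These pairs were picked for display after their values were seen.

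Levels between genes were compared per length, as FPKM, averaged over the 9 libraries. Mrpl12, the stalk protein that also binds the mitochondrial RNA polymerase, was highest at 76.4 FPKM. Mrps6 (64.5), Mrpl18 (52.0) and Mrps21 (45.9) followed, with Mrpl34 close to Mrps21 at 45.8. The lowest were Mrpl48 (2.86 FPKM), Mrps35 (3.38), Mrpl33 (3.74) and Mrpl32 (4.93). Taken with the summed counts of Normal replicate 1, the deposited FPKM implies a length of 8773 bases for Mrpl48, 9264 for Mrps35 and 7876 for Mrpl33. It implies 5350 for Mrpl32, against 1644 for Mrpl12 and 794 for Mrps21. The exons in GENCODE M21 cover fewer bases, 8152 for Mrpl48 and 7326 for Mrpl33, so the implied lengths are approximate. The order of the genes by FPKM therefore rests in part on the lengths the authors used. The members' median was 14.5 FPKM in Normal, 14.4 in ET and 13.7 in M, and that of cytosolic ribosomal protein genes 232.6, 187.8 and 190.3.

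Of the highest genes, Mrpl12 had 145.7, 130.3 and 137.2 CPM in Normal, 129.5, 120.6 and 118.2 in ET and 116.3, 115.4 and 116.2 in M. Its lowest Normal library was just above its highest ET library, and the log2 change was -0.21 ± 0.041. Mrpl18, a large subunit protein next to the central protuberance, had 94.0, 89.2 and 95.0 CPM in Normal, 73.6, 69.5 and 75.4 in ET and 69.0, 63.6 and 71.3 in M, and fell (log2 change -0.40 ± 0.044). It shares 141 exonic bases with Tcp1 on the opposite strand, which stood at 585 CPM in Normal and was slightly higher in treated cells (log2 change 0.09). Mrps6 was not called (-0.04 ± 0.043), and Mrps21 was called higher (0.22 ± 0.066). Mrps6 shares 159 bases on the same strand with Slc5a3, an inositol transporter gene, which averaged 346.2 CPM (Normal), 97.7 (ET) and 134.5. (M) Among the lowest, Mrpl33 and Mrpl32 were called higher (0.23 ± 0.073 and 0.23 ± 0.074), and with total counts neither was.

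The 3 relatives of bacterial S18 showed small differences. Mrps18a, which is built into the large subunit, had 48.8, 45.0 and 45.8 CPM in Normal, 42.2, 45.4 and 40.8 in ET and 43.0, 43.4 and 42.3 in M. Its ET and Normal libraries overlapped. It was called lower (log2 change -0.12 ± 0.050; edgeR, adjusted p = 0.0457), and the adjusted p was 0.0623 with a replicate block and up to 0.257 when 1 library was left out. Mrps18b was 56.5 ± 1.76, 63.8 ± 4.69 and 58.4 ± 0.426 CPM in Normal, ET and M (0.11 ± 0.049, not called). Mrps18c was 13.8 ± 0.404, 14.1 ± 0.208 and 15.1 ± 1.44 CPM (0.08 ± 0.078, not called), and its sign turned with total counts (-0.01).

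Mrps30, in spite of its name a large subunit protein, had 62.6, 58.9 and 60.0 CPM in Normal, 54.7, 50.2 and 55.2 in ET and 51.1, 48.6 and 51.3 in M, and fell (log2 change -0.22 ± 0.046). Mrpl58, a peptidyl-tRNA hydrolase that rescues stalled mitoribosomes and is built into the large subunit, averaged 21.9 ± 1.11, 19.6 ± 1.34 and 17.8 ± 0.712 CPM and was called lower (-0.23 ± 0.066), and the adjusted p was 0.058 without Normal replicate 1. Mrps12, the decoding centre protein, was 14.8 ± 1.59, 14.1 ± 1.13 and 13.5 ± 0.737 CPM, and Mrps27, an RNA-binding protein of the small subunit, 61.5 ± 1.48, 57.8 ± 1.67 and 57.5 ± 3.08. Neither was called (both -0.09).

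Summed over the 78 genes, the level lay between 3758.8 and 3894.4 CPM in Normal, 3560.7 and 3721.6 in ET, and 3520.1 and 3530.4 in M. Every treated library lay below every Normal library. On the log2 scale the treated mean was -0.10 from Normal, where the SD of this sum between libraries of a group was 0.024. With total counts in place of TMM factors it was -0.185. As a share of all FPKM, the members took 0.499% to 0.509% (Normal), 0.454% to 0.471% (ET) and 0.442% to 0.451% (M). No p is given for this sum. In bulk RNA, fewer cells of a type and less RNA per cell cannot be told apart.

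Compared each with Normal, ET had 19 members called higher and 27 lower (background 35.0% and 35.2%), and M had 13 higher and 33 lower (background 35.5% and 34.5%). The 13 became 8 with total counts (background 30.0%), with limma on log2(FPKM + 1) (30.1%) or log2(FPKM + 0.1) (30.0%), and with no filter on FPKM (18.6% of 26146 genes). The medians were -0.06 and -0.10. Both comparisons use the same Normal libraries. The values of the leading genes were alike, with log2 changes in ET and M of 1.04 and 1.07 for Mrpl52, -0.56 and -0.67 for Mrps26, -0.57 and -0.64 for Mrpl23, and -0.61 and -0.57 for Mrps35.

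Between M and ET, the comparison that carries the extract under either reading of the labels, no member was called by edgeR. Of all tested genes, 4.97% were called higher and 4.12% lower. At an unadjusted p under 0.05 there were 13 members (16.7%), against 25.4% of all tested genes, so their total was below the background. Of the 13, 2 were higher and 11 lower in M, against 1635 higher and 1300 lower of the 11536 tested genes. The shortfall thus lay in genes higher in M, not in those lower. The median log2 difference was -0.04, against 0.003 for all tested genes. The groups did not overlap in 18 of 78 members (23.1%, background 28.7%). Of these 18, 14 were lower in M, against 1662 of the 3312 such genes among all tested. The 95% interval of the difference lay within 1.5-fold for 77 of 78 members, so that larger differences lie outside the interval for these. For the middle member the far bound of the interval was 1.16-fold.

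The members nearest the threshold were large subunit genes. Mrpl2 had 59.3, 55.7 and 55.6 CPM in Normal, 43.0, 45.4 and 41.3 in ET and 37.3, 39.5 and 38.1 in M. The 3 groups were separate, with M lowest, and M against ET was -0.17 ± 0.057 (edgeR, adjusted p = 0.0772). DESeq2 called Mrpl2, Mrpl30 and Mrpl51 lower in M (3.85% of members, 6.77% of all tested genes). Limma on log2(FPKM + 1) called Mrpl2 and Mrpl51 (2.56% against 4.10%), and limma on log2(FPKM + 0.1) Mrpl2 (1.28% against 3.65%). Without ET replicate 3, the ET library nearest to M on the second component, edgeR called 6 members lower in M. They were Mrpl2, Mrpl20, Mrpl28, Mrpl37, Mrps17 and Mrps18b, with differences of -0.21 to -0.15. That is 7.69% of members, near the 6.13% of all tested genes called lower in that fit. By the column names this is lower with the extract than with LPS alone, and by the library names the opposite.

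**Figure D4:**
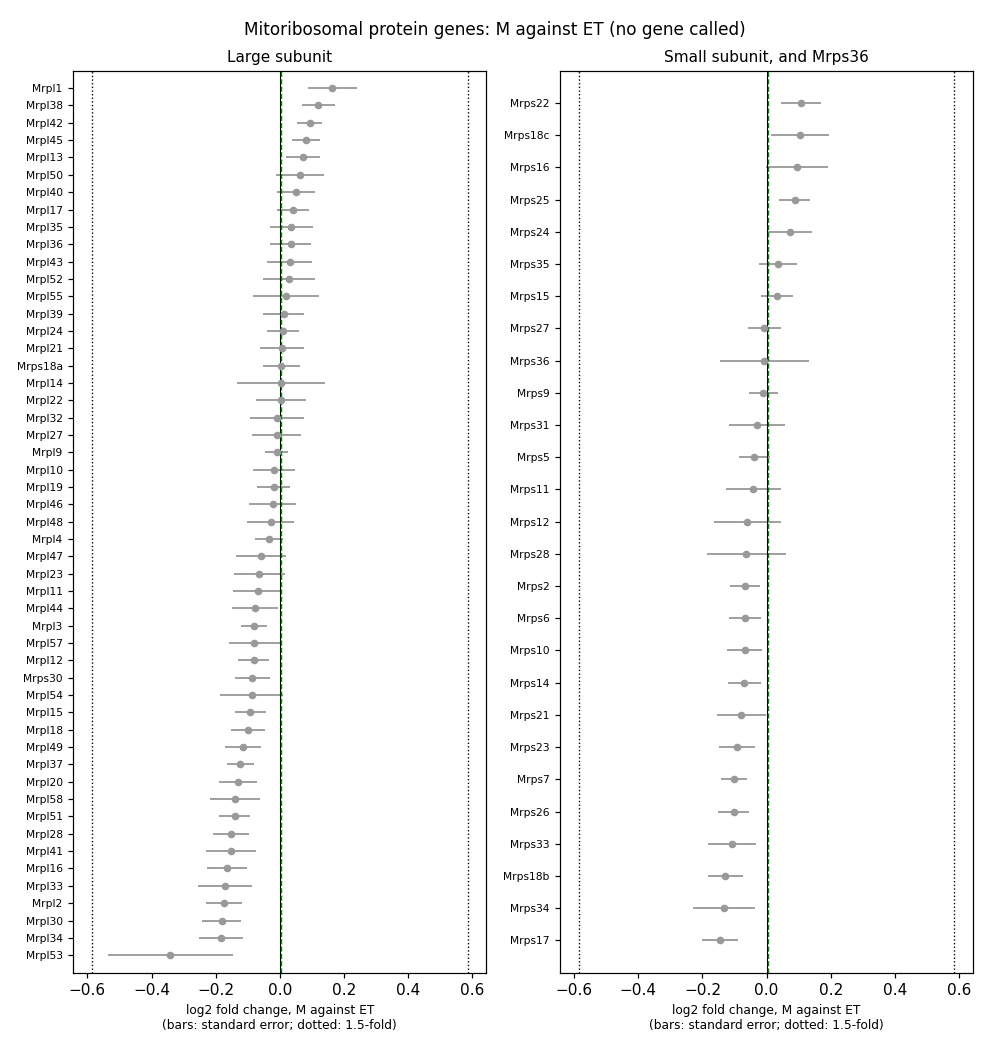
Log2 fold change of M against ET (x axis) for each member, with the standard error as a bar, for the large subunit on the left and the small subunit with Mrps36 on the right. Dotted lines mark 1.5-fold and the dashed line the median of all tested genes, and values run from -0.34 (Mrpl53) to 0.16 (Mrpl1) with none called.

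The other genes of mitochondrial translation were read from lists, whose counts are for the treated mean against Normal. In that comparison 36.8% of all tested genes were called higher and 36.8% lower. Of 5 mitoribosomal proteins with other names, Dap3, a GTP-binding protein of the small subunit, was higher (93.1 ± 1.93 CPM in Normal, 111.6 ± 2.73 in ET, 105.5 ± 3.01 in M). Gadd45gip1, a protein at the exit tunnel of the large subunit, was lower (41.0 ± 3.19, 29.4 ± 0.498 and 30.2 ± 2.63). The other 3, Aurkaip1, Chchd1 and Ptcd3, were not called. Of 25 tested genes of mitoribosome assembly and rRNA modification, 1 was higher (4.0%) and 10 were lower (40.0%), with a median log2 change of -0.15. The share lower was thus near that of all tested genes, and the share higher below it. Mettl17 (-0.71 ± 0.065), the pseudouridine synthase Rpusd4 (-0.61 ± 0.044) and the small subunit assembly factor Rbfa (-0.61 ± 0.057) fell, and the helicase Ddx28 rose (0.37 ± 0.060).

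Of 17 translation factors and helpers, 2 were higher (11.8%) and 9 lower (52.9%), against 36.8% each of all tested genes (median -0.14). Oxa1l, which inserts the newly made proteins into the inner membrane, was lower (114.2 ± 3.12 CPM in Normal, 79.7 ± 2.51 in ET, 71.1 ± 2.21 in M), and was also called lower in M than in ET. Metap1d, a methionine aminopeptidase, and Guf1, a translation GTPase, fell by 0.88 ± 0.078 and 0.69 ± 0.080 on the log2 scale. The elongation factors Gfm1 and Gfm2 rose slightly (0.09 ± 0.033 and 0.13 ± 0.047). Of 11 genes of mitochondrial DNA transcription and copying, 9 were lower (81.8%) and 1 higher (9.09%), with a median of -0.36. The exonuclease Mgme1 fell (-1.08 ± 0.056), as did Tfam (-0.36 ± 0.043), which packages mitochondrial DNA, and the single-strand binding protein Ssbp1 (-0.37 ± 0.049). The transcription factor Tfb2m rose (0.14 ± 0.059).

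Of 9 regulators of mitochondrial biogenesis, 6 were lower (66.7%) and 2 higher (22.2%), against 36.8% each of all tested genes. Pprc1 (-0.52 ± 0.032), a coactivator, and Gabpb2 (-0.68 ± 0.052), a GABP subunit, fell. Nrf1 (-0.36 ± 0.055), Gabpa (-0.30 ± 0.046), Gabpb1 (-0.30 ± 0.051) and Yy1 (-0.23 ± 0.041) were also called lower. Any link to the members with the matching promoter letters was not tested. Myc, a growth transcription factor, rose (0.440 ± 0.275 CPM in Normal, 23.4 ± 0.772 in ET, 20.8 ± 3.95 in M), and the nuclear receptor gene Esrra rose by 0.31 ± 0.055 on the log2 scale. Between M and ET, 2 of the 9 were called lower in M (22.2%, against 4.12% of all tested genes). These were Esrra (-0.22 ± 0.063) and Ppargc1b (-0.37 ± 0.086), and none was called higher. Among 10 proteases and prohibitins the direction was mixed, with 6 higher (60.0%) and 3 lower (30.0%). Lonp1, the main matrix protease, rose (0.70 ± 0.031), as did Afg3l2 (0.35 ± 0.031), a subunit of the inner membrane protease that matures Mrpl32. Its partner subunit Spg7 (-0.37 ± 0.046), Oma1 (-0.48 ± 0.068) and Phb2 (-0.46 ± 0.035) fell. Between M and ET, 2 of the 10 were called higher in M (20.0%, against 4.97% of all tested genes). These were Clpx (0.28 ± 0.054) and Yme1l1 (0.29 ± 0.072), and none was called lower.

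Most of the messages that the mitoribosome translates were lower. Of 13 mitochondrially encoded protein genes, 11 were called lower by edgeR (84.6%, against 36.8% of all tested genes) and none higher. At an unadjusted p under 0.05 there were also 11, all lower, and the median log2 change was -0.30. The other 2, mt-Atp6 (-0.07 ± 0.080) and mt-Atp8 (0.29 ± 0.25), were not called. How fully a poly(A) selection samples each of these messages, mt-Nd6 among them, was not tested. The largest falls were mt-Cytb (4748 ± 289 CPM in Normal, 3100 ± 341.7 in ET, 3122 ± 66.5 in M), mt-Nd6 (-0.61 ± 0.054) and mt-Nd5 (-0.58 ± 0.051). Their share of all counts was 4.31% to 4.53% (Normal), 3.24% to 3.55% (ET) and 3.40% to 3.71% (M). The mitochondrial rRNAs, which a poly(A) selection samples only in part, moved apart, with mt-Rnr1 higher (0.53 ± 0.042) and mt-Rnr2 lower (-0.58 ± 0.093). Of 79 tested cytosolic ribosomal protein genes, 62 were called lower (78.5%) and none higher. At an unadjusted p under 0.05 there were 65, 64 of them lower, and the median was -0.21. The mitoribosomal members thus held called genes in both directions where the cytosolic list held one, a contrast given as counts and not tested.

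**Figure D5:**
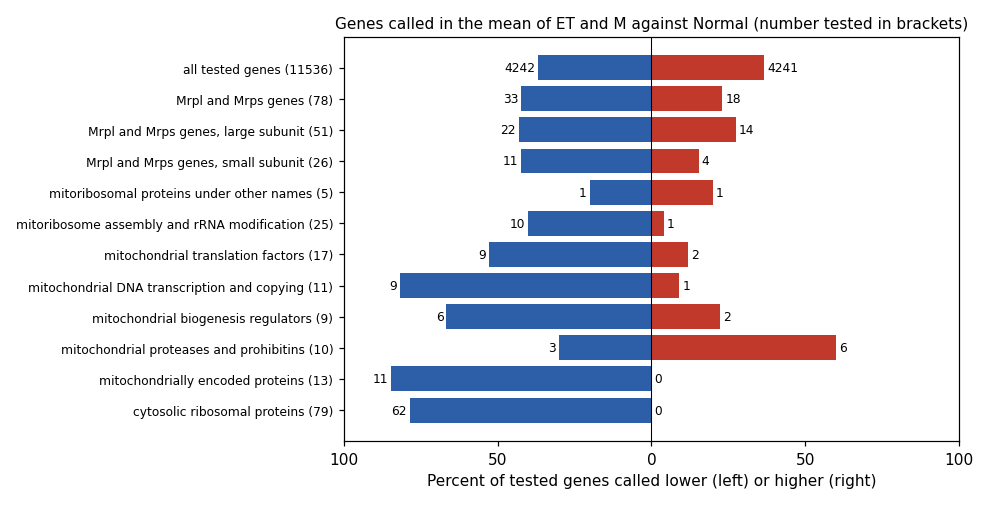
Percent of tested genes called lower (left of 0) or higher (right of 0) in the mean of ET and M against Normal, for all tested genes, the Mrpl and Mrps genes, their subunits and the related lists, with the number called beside each bar and the number tested in brackets. The Mrpl and Mrps genes have bars on both sides (33 lower, 18 higher), while the mitochondrially encoded (11 lower) and cytosolic ribosomal protein genes (62 lower) have bars only to the left.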

How the data were processed

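Reads of 9 poly(A) libraries were processed by the authors. Per the submitters' processing notes, cutadapt 1.9, HISAT2 2.2.1, StringTie 2.1.6, DESeq2 and edgeR were used. The counting tool, strand setting and genome build are not given in the sources used here. Start and end equalled GENCODE M21 (GRCm38) for 69 of 78 members and 23547 of 26146 genes. Whole-number counts per gene were deposited by the authors, per the file headers. FPKM values (fragments per kilobase and total fragments) were also made by the authors, per the file headers. For each gene their ratio to counts was fixed up to depth, so FPKM uses 1 length per gene. Table columns were matched to samples through the column name given in the label, and 0 sample columns were left unmapped.

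Counts were tested with edgeR 4.0.16 in R 4.3.3 (quasi-likelihood test, TMM factors, 1 fit of the 3 groups). Genes with FPKM reaching 1 in 3 libraries were kept, and Benjamini-Hochberg adjustment ran over 11536 genes at 0.05. There were 4 comparisons. Intervals are 95% and come from the fit. Promoter windows are RefSeq's, with bases in the gene's own annotated 5′ UTR left out of those printed. The fit was also run on simulated data, but the outcome is not given here and no result above rests on it. With 55039858 counts or more per library, 3 counts stand for at most 0.0555 CPM, which covers counting error only.

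Named genes are, per comparison, the 5 largest rises and 5 largest falls among called members without overlap, the 4 highest and 4 lowest by FPKM, a panel of 10 and, per other list, up to 3 with the smallest p and up to 3 against the majority. Nrf1, Gabpa, Gabpb1, Yy1, Ppargc1b, Clpx, Yme1l1, mt-Atp6 and mt-Atp8 were named outside this rule, after their values were seen. Members and lists were chosen with earlier results of these data known. Alternatives were relative log expression factors, total counts, other filters, a replicate block, fits of 6 libraries, limma 3.58.1 on log2(FPKM + 1) and log2(FPKM + 0.1), DESeq2 1.42.0 and leaving out each library. Counting Mrpl53 with Gm42688, leaving out overlapping members and the other scales of the summed level were chosen after seeing the data. Protein sequences were not used here.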

Additional observations from a re-analysis of the deposited data

How the results depend on the processing

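The number of members called lower against Normal stayed within 1.5 times of the values above under every alternative run. The number called higher did not. For M against Normal (13 higher), total counts, no filter on FPKM, limma on log2(FPKM + 1) and limma on log2(FPKM + 0.1) each gave 8. For the mean of ET and M (18 higher), total counts gave 8, limma on log2(FPKM + 1) gave 9 and limma on log2(FPKM + 0.1) gave 8, and the cause was not tested. Without single libraries, that comparison had 13 to 20 higher and 26 to 33 lower. Between M and ET, members called lower were 2 with limma on log2(FPKM + 1), 1 with limma on log2(FPKM + 0.1) and 3 with DESeq2, and 0 to 6 without single libraries, the 6 without ET replicate 3. The summed level moved from -0.10 on the log2 scale to -0.185 with total counts and -0.14 as FPKM. Mrpl53 turned to -0.048 when counted with Gm42688, and Mrps18c to -0.0079 with total counts, -0.0054 with limma on log2(FPKM + 1) and -0.0059 with limma on log2(FPKM + 0.1).

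No pairing by replicate number was seen. Same-numbered deviations correlated at -0.093 to 0.055 and other-numbered ones at -0.105 to 0.111. With 3 libraries per group, a weak pairing could be missed. With a replicate block, the treated mean had 17 members higher and 31 lower, ET 19 and 28, and M 12 and 32, with 0 between M and ET. Among named genes over all alternatives, 442 values kept side and direction, 23 lost and 14 gained a call. Precision is limited by 3 libraries per group, by genes that share exonic bases and by the unknown strand setting.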

Other observations

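Of the 5 pseudogene rows left out by name, 2 passed the filter. Mrpl48-ps had 7.12, 7.00 and 6.21 CPM in Normal, 6.15, 5.56 and 5.70 in ET and 5.02, 6.30 and 5.86 in M. Mrpl23-ps1 had 1.91, 0.908 and 1.37 CPM in Normal and 0.607 to 1.03 CPM in the treated libraries. The other 3 rows lay between 0 and 0.472 CPM in every library.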
